A study of Mus musculus with 6 samples.

Results

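The genes described here are 9 members of the interleukin 6 family in mouse osteoblasts killed with ultraviolet light: the ligand genes Il6, Lif, Clcf1 and Il11, the receptor chain genes Il6st, Lifr, Osmr and Il11ra1, and the feedback gene Socs3. They were chosen by symbol, and all 9 were found among the 29587 gene rows of the deposited table. Messenger RNA was sequenced from apoptotic osteoblasts of old mice (3 libraries) and of young mice (3 libraries). Pieces of bone were cultured, and the adherent cells, taken by the submitters as bone marrow mesenchymal stem cells after 3 passages, were kept in osteogenic medium for 3 days and then put under ultraviolet light for 0.5 h. By the labels, more than 90% of the cells then took up Trypan Blue, a dye that enters dead cells. All 6 libraries share this treatment, so none is from cells kept without osteogenic medium or without ultraviolet light. Some cells in a library may still have been living or undifferentiated. The labels give the mice as young or old, with no age in months, strain or sex and with "none" as the genotype, and do not state whether each library had its own animal. The p-values thus reflect how far these libraries scatter, and that scatter may be technical.

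Cytokines of this family share the receptor chain gp130, which Il6st encodes. Each ligand assembles gp130 with further chains: leukaemia inhibitory factor, from Lif, with the chain from Lifr, oncostatin M with the chain from Osmr, and interleukin 11 with the chain from Il11ra1. The receptors activate JAK kinases and the transcription factor STAT3, which induces Socs3, and SOCS3 protein binds gp130 and dampens the signal. In bone, cells of the osteoblast lineage are known both to secrete these cytokines and to respond to them, and the family is known for promoting osteoclast formation and for acting on bone formation.

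Il6 and Lif were the members called different, so the 300 bases around the RefSeq start site of each are shown, with those of Socs3, the feedback gene, beside them. RefSeq promoter sequences (GRCm38.p6, the assembly of mm10) were found for 8 of the 9 members, all but Clcf1, and each runs from 250 bases before the start site to 50 after it. Capitals mark matches on either strand. The patterns were TTCNNNGAA (a STAT element), TGANTCA (AP-1), GACGTCA (CRE), TTGCNNNAA (used for C/EBP), the interferon-stimulated response element and the NF-kappaB motif. No match overlapped another. The motifs were chosen with the known elements of the Il6 promoter in mind. The C/EBP pattern has a fixed spacing, and stretches spaced otherwise, such as ttgtgcaa after the CRE of Il6, were not searched. The absence of a match therefore does not show that a window lacks a C/EBP site.
Il6: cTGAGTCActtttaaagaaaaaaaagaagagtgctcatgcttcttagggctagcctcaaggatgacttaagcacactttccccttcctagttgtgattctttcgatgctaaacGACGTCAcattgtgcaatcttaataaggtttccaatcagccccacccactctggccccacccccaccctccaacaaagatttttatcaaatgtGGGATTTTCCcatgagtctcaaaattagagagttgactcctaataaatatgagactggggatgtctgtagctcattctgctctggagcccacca
Lif: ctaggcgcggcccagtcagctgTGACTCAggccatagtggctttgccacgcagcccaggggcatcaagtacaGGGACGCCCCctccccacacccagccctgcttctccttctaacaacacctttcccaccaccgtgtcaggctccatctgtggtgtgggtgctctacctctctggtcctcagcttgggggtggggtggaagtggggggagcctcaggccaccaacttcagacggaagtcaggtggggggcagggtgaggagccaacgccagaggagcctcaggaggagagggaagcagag
Socs3: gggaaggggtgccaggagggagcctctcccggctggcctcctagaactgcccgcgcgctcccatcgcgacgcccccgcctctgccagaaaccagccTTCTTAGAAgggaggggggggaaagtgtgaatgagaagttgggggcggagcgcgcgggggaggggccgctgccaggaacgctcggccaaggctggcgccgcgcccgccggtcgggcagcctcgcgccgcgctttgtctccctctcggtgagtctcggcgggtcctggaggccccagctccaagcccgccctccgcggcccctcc
The Il6 window (chr5:30012864-30013163, plus strand) held an AP-1 match from base -249, a CRE match from base -137 and an NF-kappaB match from base -44, counted from the start site. The Lif window (chr11:4257318-4257617, plus strand) held an AP-1 match from base -228 and an NF-kappaB match from base -178. The Socs3 window (chr11:117969317-117969616, minus strand) held a STAT element from base -154. Its RefSeq start lies 681 bases inside the gene's deposited span.

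Among all 32851 promoter windows of the same length, 7.81% held the AP-1 motif, 8.46% the NF-kappaB motif and 0.539% both. The STAT element was in 8.3%, the CRE in 3.21%, TTGCNNNAA in 9.56% and the interferon-stimulated response element in 3.44%. Among the 9898 windows of tested genes, 4.65% held the AP-1 motif, 10.5% the NF-kappaB motif and 0.465% both. There the STAT element was in 6.46%, the CRE in 5.61%, TTGCNNNAA in 7.06% and the interferon-stimulated response element in 3.04%. Of the other members, Osmr (from base 3) and the second RefSeq start of Il11 (from base -98) held an AP-1 match. The second start of Il11ra1 held a match to TTGCNNNAA (from base -205). No motif searched was found in the windows of Il6st, of either Lifr start, of the first Il11 start or of the first Il11ra1 start. A match is a stretch of letters and does not show that a factor binds there.

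**Figure D1:**
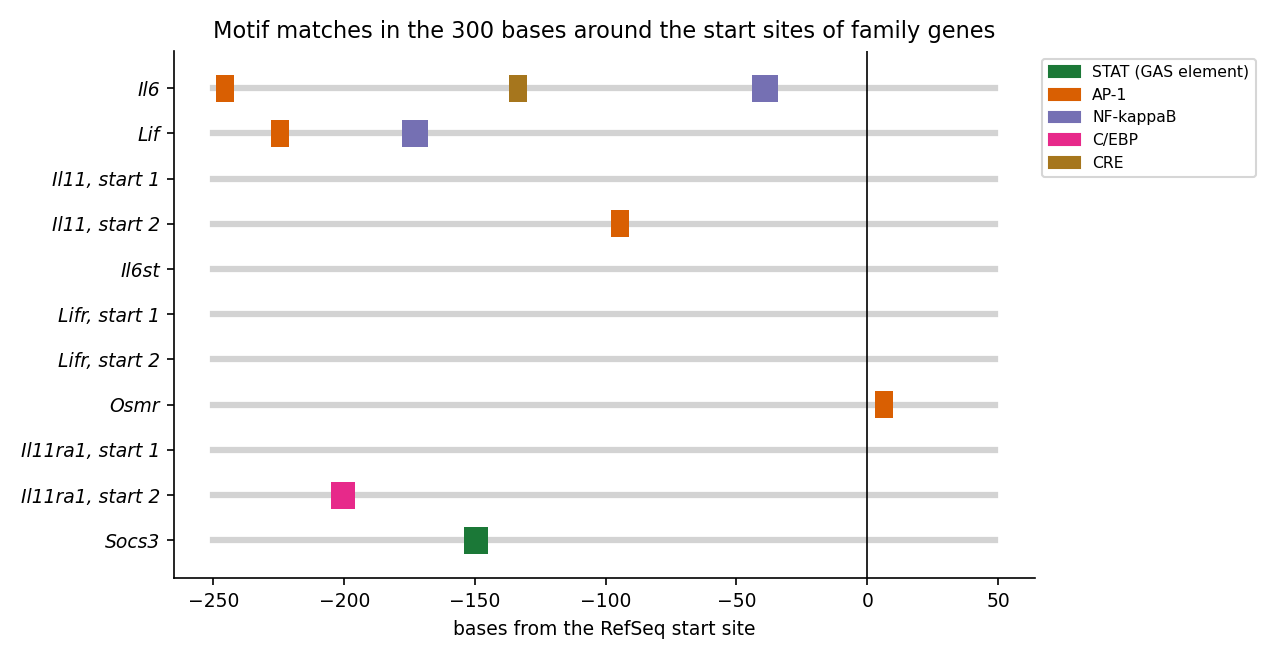
Positions of motif matches in the windows of 300 bases around the RefSeq start sites of 8 family genes, in bases from the start site (vertical line). Each grey bar is a window and each coloured block a match, and the windows of Il6 and Lif are the ones that hold both an AP-1 and an NF-kappaB match. The block labelled C/EBP is a match to TTGCNNNAA.

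Depth and the libraries that stand apart were examined first. The recovered reads numbered 75456146 to 84535939 in old libraries and 64881180 to 82917726 in young libraries. Young replicate 1 correlated at 0.949 and 0.962 with young replicates 2 and 3, which correlated with each other at 0.996, and the old libraries correlated among themselves at 0.995 to 0.997 (Pearson's r across 12015 genes, which are not independent replicates). Its difference from young replicates 2 and 3 ran with gene length, counted in exon bases. The median was 0.16 on the log2 scale in 3494 genes under 2000 bases and -0.53 in 718 genes of at least 10000 bases. Results are therefore also given without this library.

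The osteoblast markers Col1a1, Col1a2, Sparc, Spp1, Ibsp, Runx2 and Sp7 were expressed, while Alpl and Bglap stayed below 1 RPKM in every library. RPKM is the number of reads scaled to the length of the gene and to the total of the library. Of 11 macrophage and monocyte markers in the table, 9 were below 1 RPKM in every library, and Ptprc, Adgre1 and Itgam were at or near 0. Csf1r, Cd14 and Cd68 were detected in every library, with overlapping groups. They were at 0.36 to 0.521, 0.391 to 0.662 and 0.601 to 1.04 RPKM in old. In young they were at 0.383 to 0.618, 0.307 to 0.647 and 0.54 to 1.03 RPKM. The summed level of the macrophage markers was 9.8 to 11.1 RPKM in old libraries and 8.42 to 9.68 RPKM in young libraries, most of it from Lyz2. Without Lyz2 it was 2.24 to 2.75 RPKM in old and 1.62 to 2.16 RPKM in young. Cx3cr1 was the marker of this list whose groups did not overlap, at 0.53, 0.565 and 0.588 RPKM in old replicates and 0.342, 0.149 and 0.166 RPKM in young replicates. Without the filter it was not called with all libraries (limma adjusted p = 0.151) and was called without young replicate 1 (limma adjusted p = 0.0134). Its part in the results on Il6 and Lif was not tested. The lymphocyte, endothelial and adipocyte markers in the table, 4, 4 and 5 genes, were all at or below 0.1 RPKM in every library.

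Of 8 members tested, 2 ligand genes, Il6 and Lif, rose in apoptotic osteoblasts from old mice, by 3.41-fold and 3.79-fold in mean RPKM, and 0 fell. The third tested ligand gene, Clcf1, the receptor chain genes and Socs3 were not called. Calls here mean limma on log2(RPKM + 1) and a Benjamini-Hochberg adjusted p under 0.05 over all 12015 genes with 1 RPKM or more in at least 3 libraries. Of all tested genes, 1.47% were called higher and 0.0999% lower in old, 1.57% in all. No young library held 1 RPKM of Il6 or Lif, so both entered the test through the old libraries. Any gene that enters that way has to be higher in old, and the count of 2 is a description. In bulk RNA, fewer cells that make a transcript and less of it per cell cannot be told apart.

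Il6 encodes interleukin 6 (chromosome 5, 30013114 to 30019981, mm10, plus strand). It was at 1.9, 2.04 and 3.25 RPKM in old replicates 1, 2 and 3, against 0.825, 0.626 and 0.656 RPKM in young replicates 1, 2 and 3. All old libraries were above all young ones, and old replicate 3 stood above the other old libraries. These levels rest on 389, 374 and 638 recovered reads in old and 130, 118 and 132 in young. The log2 fold change of old against young was 0.98 ± 0.16 (SE, limma adjusted p = 0.0477). Without young replicate 1 it was 1.03 ± 0.16 (SE, limma adjusted p = 0.00671). The call was lost without any 1 of the other libraries, with a limma adjusted p of 0.0568 without old replicate 3 and of up to 0.226 without the others, so Il6 lay close to the threshold.

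Lif encodes leukaemia inhibitory factor (chromosome 11, 4257557 to 4272514, mm10, plus strand). It was at 1.53, 1.49 and 1.62 RPKM in the old replicates, against 0.213, 0.563 and 0.449 RPKM in the young. The old libraries lay close together and above all young ones, and young replicate 1 was the lowest. They held 564, 489 and 569 recovered reads in old and 60, 190 and 162 in young. The log2 fold change was 0.86 ± 0.11 (SE, limma adjusted p = 0.0161), and without young replicate 1 it was 0.76 ± 0.07 (SE, limma adjusted p = 0.000836). The call also held without young replicate 2 (limma adjusted p = 0.0261). It did not hold when young replicate 3 or a single old library was left out, at limma adjusted p of 0.0932 to 0.118.

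Clcf1 encodes cardiotrophin-like cytokine factor 1, which acts on the receptor for ciliary neurotrophic factor (chromosome 19, 4214238 to 4223490, mm10, plus strand). It was at 2.58, 2.88 and 2.32 RPKM in old replicates and 1.94, 2.68 and 2.67 RPKM in young replicates. The groups overlapped, and the log2 fold change was 0.07 ± 0.12 (SE, limma adjusted p = 0.965), with a 95% interval from -0.23 to 0.37. Il11, which encodes interleukin 11 (chromosome 7, 4772373 to 4782857, mm10, minus strand), did not pass the filter. It was at 0.218, 0.145 and 0.123 RPKM in old replicates, against 0.184, 0.064 and 0.0719 RPKM in young replicates. With 37, 22 and 20 recovered reads in old and 24, 10 and 12 in young, its groups overlapped through young replicate 1. In a fit without the filter it was not called (log2 fold change 0.07 ± 0.05, SE, limma adjusted p = 0.839), nor when young replicate 1 was also left out (0.12 ± 0.04, SE, limma adjusted p = 0.17).

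The mix of ligand transcripts is given as a description that rests on the same values and was not tested. Clcf1 made up 41.5, 43.9 and 31.7% of the summed RPKM of the 4 ligand genes in old replicates, against 61.3, 68.2 and 69.4% in young replicates. Il6 made up 30.4, 31.1 and 44.5% in old and 26.1, 15.9 and 17% in young. Lif made up 24.6, 22.7 and 22.1% in old and 6.73, 14.3 and 11.7% in young. A share depends on the levels of the other ligand genes, and the RPKM of Clcf1 itself overlapped between the groups. The sum itself was 6.7 ± 0.557 RPKM in old and 3.65 ± 0.424 RPKM in young (SD, n = 3 each).

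**Figure D2:**
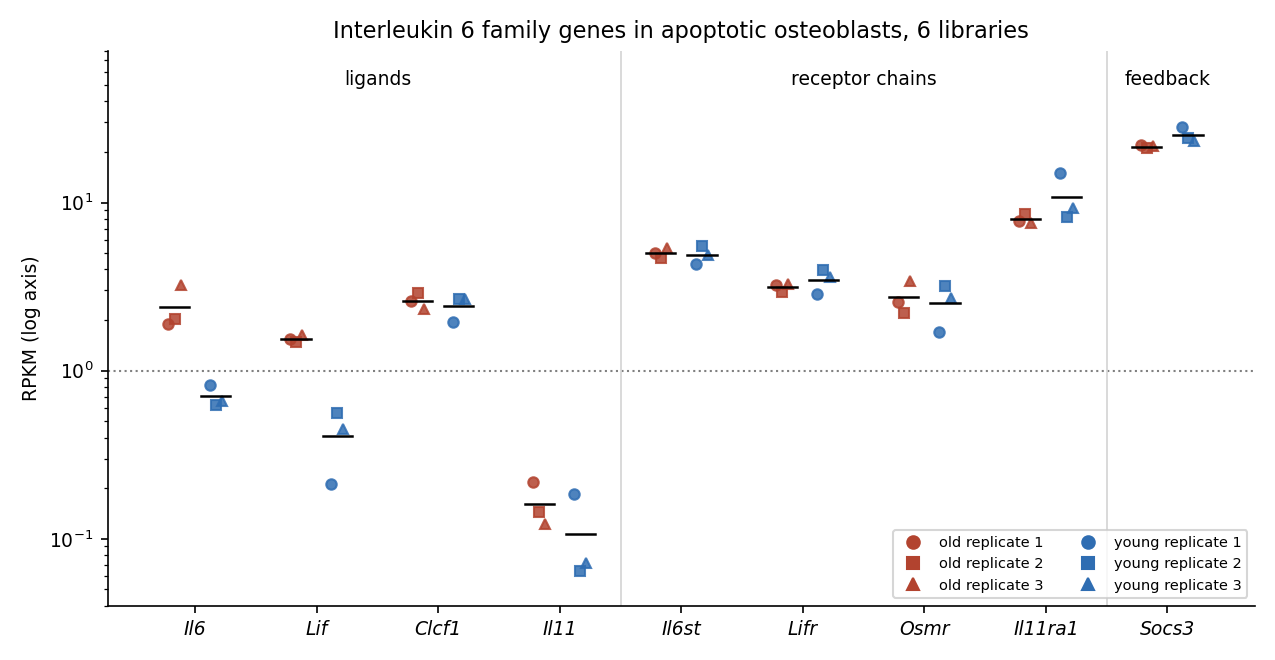
RPKM of the 9 family genes on a log axis in the 3 old (red, left) and 3 young (blue, right) libraries, with a symbol for each replicate, a black bar for the group mean and a dotted line at the 1 RPKM of the filter. Il6 and Lif lie above the line in every old library and below it in every young library, while most other genes overlap between the groups.

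None of the 4 receptor chain genes was called. Il6st, the gene of gp130 (chromosome 13, 112464070 to 112510086, mm10, plus strand), was at 4.99, 4.65 and 5.35 RPKM in old replicates and at 4.33, 5.49 and 4.9 RPKM in young replicates. The groups overlapped. The log2 fold change was 0.02 ± 0.11 (SE, limma adjusted p = 0.988), and its 95% interval ran from -0.24 to 0.29, or 0.848-fold to 1.22-fold on the RPKM + 1 scale.

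Lifr (chromosome 15, 7129559 to 7197489, mm10, plus strand) was at 3.23, 2.95 and 3.27 RPKM in old replicates and at 2.87, 3.95 and 3.59 RPKM in young replicates. Young replicate 1 was the lowest of all 6 libraries and young replicate 2 the highest, so the groups overlapped. The log2 fold change was -0.10 ± 0.12 (SE, limma adjusted p = 0.922). Without young replicate 1 it was -0.20 ± 0.07 (SE, limma adjusted p = 0.0625). Over the 718 tested genes of at least 10000 exon bases, Lifr among them, the median difference of old from young replicates 2 and 3 was -0.19.

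Osmr, the gene of the oncostatin M receptor chain, lies near Lifr on the same chromosome (chromosome 15, 6813577 to 6874969, mm10, minus strand). It was at 2.56, 2.2 and 3.44 RPKM in old replicates and at 1.7, 3.19 and 2.7 RPKM in young replicates. The spread within each group was wider than the difference between them, and limma put the log2 fold change at 0.09 ± 0.20 (SE, adjusted p = 0.975). Its 95% interval from -0.40 to 0.58 leaves changes of 0.76-fold to 1.49-fold on the RPKM + 1 scale undecided.

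Il11ra1 encodes the chain that binds interleukin 11 (chromosome 4, 41699989 to 41769474, mm10, plus strand). It was at 7.81, 8.59 and 7.52 RPKM in old replicates and at 15.1, 8.19 and 9.27 RPKM in young replicates. Young replicate 1 stood far above the other 5 libraries, which overlapped between the groups. The log2 fold change was -0.36 ± 0.21 with all libraries and -0.12 ± 0.08 without young replicate 1 (SE, limma adjusted p = 0.694 and 0.279). Its near-identical copy Il11ra2 can share its reads, and its deposited span crosses 6 other genes, with 8 exon bases shared with Ccl27a on the opposite strand. Its values are therefore uncertain.

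Relative to Il6st in the same library, which removes scaling between libraries, the RPKM of Lifr was 0.646, 0.634 and 0.612 in old replicates and 0.663, 0.72 and 0.733 in young replicates. Every old library was below every young one, by a mean of -0.16 on the log2 scale (exact permutation test, two-sided p = 0.1, the smallest that 3 against 3 libraries can give). The ratio of Osmr to Il6st was 0.543 ± 0.0886 in old and 0.508 ± 0.101 in young, and that of Il11ra1 to Il6st 1.61 ± 0.223 in old and 2.29 ± 1.05 in young (SD, n = 3 each). Both overlapped between the groups (exact permutation test, two-sided p = 0.7 and 0.4). These are 3 ratios with a shared denominator, and none can pass an adjustment at this number of libraries.

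Socs3 (chromosome 11, 117966079 to 117970047, mm10, minus strand) was the highest of the 9 genes in both groups. It was at 21.9, 21 and 21.7 RPKM in old replicates and at 28, 24.1 and 23.2 RPKM in young replicates. Every old library was below every young one, but the difference was small: the log2 fold change was -0.21 ± 0.10 (SE, limma adjusted p = 0.545) and was not called. Without young replicate 1 it was -0.13 ± 0.05 (SE, limma adjusted p = 0.0885). Groups failed to overlap in 3 of the 8 tested members, 2 higher and 1 lower, where 20.8% of all tested genes did so, 10.6% higher and 10.2% lower. With Il6 and Lif entering the test through the old libraries, nothing is read from that share.

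**Figure D3:**
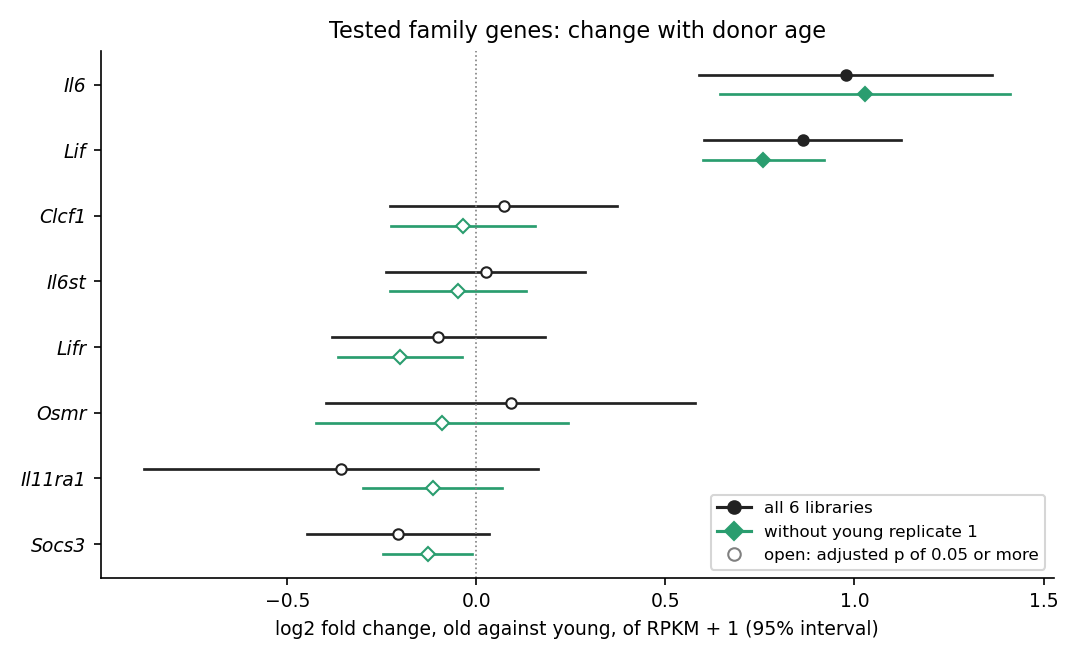
Log2 fold change of RPKM + 1, old against young, with its 95% interval from limma, for the 8 tested family genes, from all 6 libraries (black circles) and without young replicate 1 (green diamonds). Filled symbols are called, and Il6 and Lif are the genes with filled symbols, at 0.98 and 0.86 with all libraries.

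By mean RPKM, which is per length, the order in old libraries was Socs3, Il11ra1, Il6st, Lifr, Osmr, Clcf1, Il6, Lif and Il11. The order of means was the same in young libraries. In old, the ranges of Lifr and Osmr, of Osmr and Clcf1, and of Clcf1 and Il6 overlapped, so these neighbours are not told apart. In young, the ranges of Lifr and Osmr and of Osmr and Clcf1 overlapped, while Clcf1 (1.94 to 2.68 RPKM) lay clear above Il6 (0.626 to 0.825 RPKM).

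The length of the genes bears on the comparison with young replicate 1. The gp130, Lifr and Osmr genes have 11099, 10330 and 12113 exon bases in the deposited table, against 2428 for Il6 and 4350 for Lif. These lengths leave out introns. In young replicate 1, Il6st, Lifr and Osmr lay below young replicates 2 and 3 by -0.22, -0.30 and -0.55 on the log2(RPKM + 1) scale, Lif by -0.31, and Il6 lay above by 0.15. When the length trend of every library was subtracted, an alternative chosen after seeing the data, Il6 and Lif were still called higher in old (log2 fold changes of 0.94 and 0.83, limma adjusted p = 0.0428 and 0.0016).

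**Figure D4:**
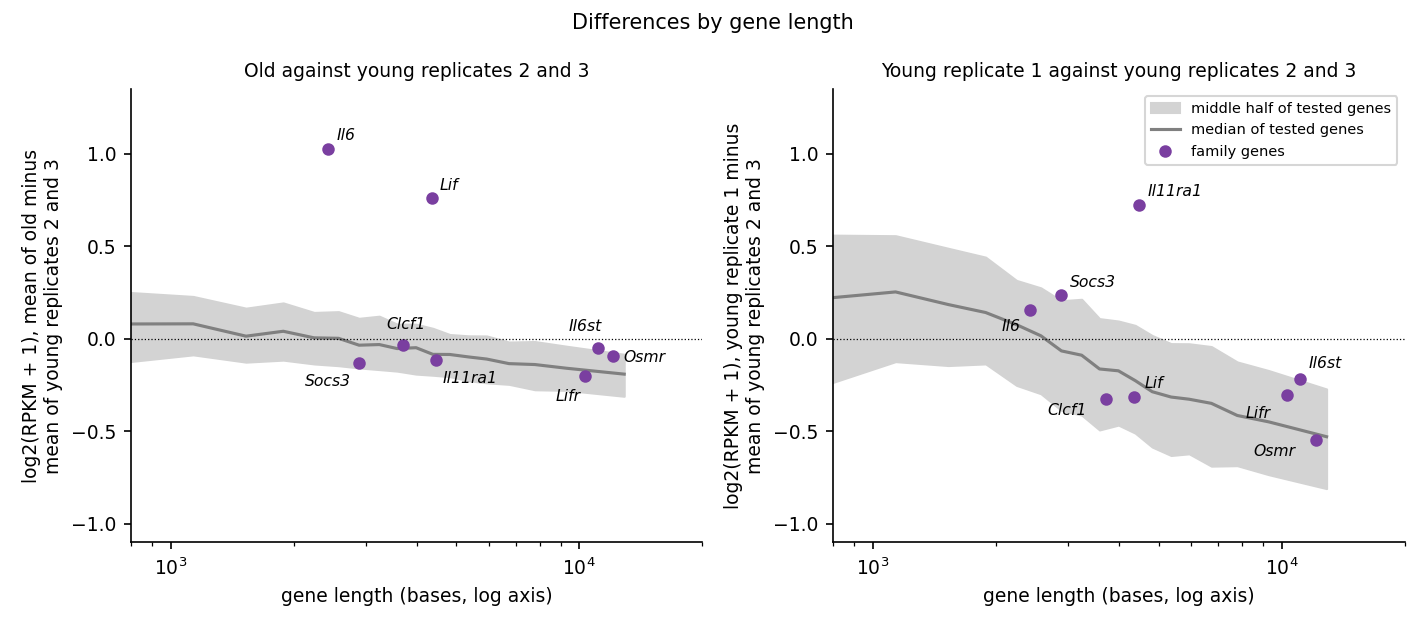
Difference on the log2(RPKM + 1) scale against gene length for the 8 tested family genes (purple) and for all tested genes (grey line, median; grey band, lower to upper quartile, in bins of equal gene number). On the left the old mean minus the mean of young replicates 2 and 3, where Il6 and Lif stand above the band, and on the right young replicate 1 minus the same mean, where the band falls with length and Il11ra1 stands above it at 0.73.

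Other ligands and receptors of the family were few or low. Of 6 further ligand genes described here, Cntf passed the filter and was not called. Cntf, the gene of ciliary neurotrophic factor, was at 1.2 ± 0.201 RPKM in old and 1.26 ± 0.332 RPKM in young (SD, n = 3 each). Osm, the gene of oncostatin M, was not analysed here.

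None of the 4 further receptor genes in the table passed the filter. Il6ra, the chain that binds interleukin 6 itself, was at 0.203, 0.181 and 0.242 RPKM in old replicates and at 0.0535, 0.131 and 0.0837 RPKM in young replicates. The old libraries were all above the young ones, on 148, 118 and 169 recovered reads in old and 30, 88 and 60 in young. In a fit without the filter Il6ra was not called (limma adjusted p = 0.215). Its level was far below that of Il6st in both groups. Cntfr, the chain that binds ciliary neurotrophic factor, was at 0.38 ± 0.0715 RPKM in old and 0.541 ± 0.204 RPKM in young (SD, n = 3 each).

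Of 12 tested genes of JAK kinases, STAT factors and adaptors described here, 0 were called by limma over all genes and 0 had an unadjusted p under 0.05. Their median log2 fold change was 0.04 with all libraries and -0.17 without young replicate 1, against 0.01 and -0.05 over all tested genes. Stat3, the main STAT factor of this family, was not called. It was at 7.45, 6.44 and 8.48 RPKM in old replicates and at 3.51, 9.43 and 7.78 RPKM in young replicates, with young replicate 1 the lowest. Jak1, the gene of the kinase that gp130 chiefly uses, was at 14.1 ± 1.28 RPKM in old and 13.2 ± 4.9 RPKM in young (SD, n = 3 each). The smallest p-values in the list were those of Grb2, Yes1 and Gab1, at limma adjusted p of 0.655, 0.859 and 0.896. With young replicate 1 left out, Yes1, Ptpn11 and Gab1 were lower in old and 0 were higher. In that fit 19.4% of all tested genes were called lower and 13.2% higher, so 3 of 12 lower is near the background.

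Of 11 tested genes of feedback and receptor shedding, 0 were called by limma over all genes, 1 had an unadjusted p under 0.05, and the median log2 fold change was -0.05, or -0.20 without young replicate 1. Socs2, a feedback gene known from growth hormone signalling, had the smallest p. It was at 1.96 ± 0.112 RPKM in old and 2.41 ± 0.183 RPKM in young (SD, n = 3 each, limma adjusted p = 0.439). Socs4, Socs6 and Socs5 followed, at limma adjusted p of 0.587, 0.619 and 0.722. Adam10 and Adam17, whose proteases cut receptor ectodomains from the cell surface, were in the list and not called. In the fit that omits young replicate 1, Socs4, Socs7 and Pias3 were lower in old and 0 were higher. These 3 of 11 are also near the 19.4% of all tested genes that were lower in that fit.

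Of 14 tested genes known as STAT3 targets, 1 rose, Fosl1, and 0 fell. Over all tested genes, 1.47% were called higher and 0.0999% lower. The median log2 fold change of the list was 0.10, against 0.01 over all tested genes. Fosl1, an AP-1 transcription factor, was at 33 ± 2.52 RPKM in old and 7.23 ± 1.68 RPKM in young (SD, n = 3 each). Its log2 fold change of old against young was 2.07 ± 0.17 (SE, limma adjusted p = 0.00265). Timp1, an inhibitor of matrix metalloproteinases, was at 141, 129 and 150 RPKM in old replicates and at 88.4, 48.3 and 51.7 RPKM in young replicates. Its groups did not overlap, and it was not called with all libraries (limma adjusted p = 0.0881) but was without young replicate 1 (limma adjusted p = 5.97e-05). The cyclin gene Ccnd1 and the angiogenic factor gene Vegfa were at 16.5 ± 0.72 and 29 ± 1.37 RPKM in old and at 10.6 ± 3.11 and 22.5 ± 2.97 RPKM in young (SD, n = 3 each), not called with all libraries. Without young replicate 1, Fosl1, Timp1, Ccnd1, Vegfa and Cebpb were higher and Birc5, a mitosis gene, was lower, where 13.2% and 19.4% of all tested genes were called in those directions. The listed targets under the filter, Bcl3, Icam1, Saa3, Lcn2, Hp and Batf3, are outside these counts. In a fit without the filter Icam1 was called higher in old (limma adjusted p = 0.0238). Its values were low, 0.1 to 0.134 RPKM in old and 0.0141 to 0.0221 RPKM in young, the latter on 4 to 8 recovered reads. Saa3, higher in old with no overlap, and the others were not called there (limma adjusted p = 0.0936 for Saa3). Many of these targets answer to other pathways too.

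Of 14 tested genes that regulate Il6 transcription or the decay of its mRNA, 2 rose, Nfkbia and Zfp36l2, and 0 fell. Over all tested genes, 1.47% were called higher and 0.0999% lower. The median of the list was 0.29 on the log2 scale with all libraries and 0.16 without young replicate 1. That of all tested genes was 0.01 and -0.05. Nfkbia encodes the inhibitor that NF-kappaB itself induces. It was at 17.3, 19.7 and 18 RPKM in old replicates and at 8.97, 10.6 and 10.9 RPKM in young replicates, with no overlap (log2 fold change 0.80 ± 0.11, SE, limma adjusted p = 0.0221). Zfp36l2, which binds AU-rich elements of mRNAs, was at 27.3 ± 1.24 RPKM in old and 17.6 ± 1.16 RPKM in young (SD, n = 3 each, limma adjusted p = 0.0332). Zfp36, in the same list, was lower in old with no overlap and was not called (limma adjusted p = 0.439). It was at 1.82 ± 0.29 RPKM in old and 2.35 ± 0.148 RPKM in young (SD, n = 3 each). Zfp36l1 overlapped between the groups and was not called. Zc3h12a, under the filter, was higher in old with no overlap and not called without the filter (limma adjusted p = 0.343). Relb, an NF-kappaB subunit, and Nfkbiz, a cofactor that Il6 induction needs in macrophages, had log2 fold changes of 0.44 ± 0.08 and 0.66 ± 0.13 and were not called (SE, limma adjusted p = 0.073 and 0.0781). Fos, an AP-1 subunit, was at 19.1, 18.9 and 11.3 RPKM in old replicates and at 27.5, 54.3 and 51.3 RPKM in young replicates. Every old library was below every young one, and the log2 fold change of -1.36 ± 0.32 was not called (SE, limma adjusted p = 0.142). When young replicate 1 was left out, Nfkbia, Nfkbiz, Zfp36l2, Nfkb2, Cebpb and Relb were higher and Fos was lower, 6 and 1 of 14 genes, where 13.2% and 19.4% of all tested genes were called in those directions. The call of Nfkbia was lost without any 1 of the other libraries, and so was that of Zfp36l2.

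Among osteoblast genes on which family signals are known to act, 3 were tested and Sp7, a transcription factor of osteoblast differentiation, fell. It was at 4.89, 4.88 and 4.94 RPKM in old replicates and at 8.4, 7.89 and 9.02 RPKM in young replicates (log2 fold change -0.68 ± 0.09, SE, limma adjusted p = 0.0186). Runx2 and Tnfrsf11b, the gene of the osteoclast inhibitor osteoprotegerin, were not called, at 3.91 ± 0.203 and 6.92 ± 0.872 RPKM in old and 5.11 ± 0.809 and 6.57 ± 1.28 RPKM in young (SD, n = 3 each). Sp7 was no longer called when young replicate 3 or a single old library was left out. The osteoblast markers went both ways: of 8 tested, Sp7 was called lower and Spp1, the gene of the matrix protein osteopontin, higher. Spp1 was at 731.9 ± 68.6 RPKM in old and 290.4 ± 75.9 RPKM in young (SD, n = 3 each, limma adjusted p = 0.0307). Dmp1, a marker of osteocytes, was at 2.46, 2.32 and 2.37 RPKM in old replicates and at 1, 1.65 and 1.4 RPKM in young replicates, with no overlap, and was not called (limma adjusted p = 0.121). Tnfsf11 and Sost were not analysed here. Over these lists together, without the 9 members, 3 of 53 tested genes were called higher and 1 lower. Of all tested genes, 1.47% were called higher and 0.0999% lower. The lists were chosen with earlier results of these data known, so the count is a description.

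**Figure D5:**
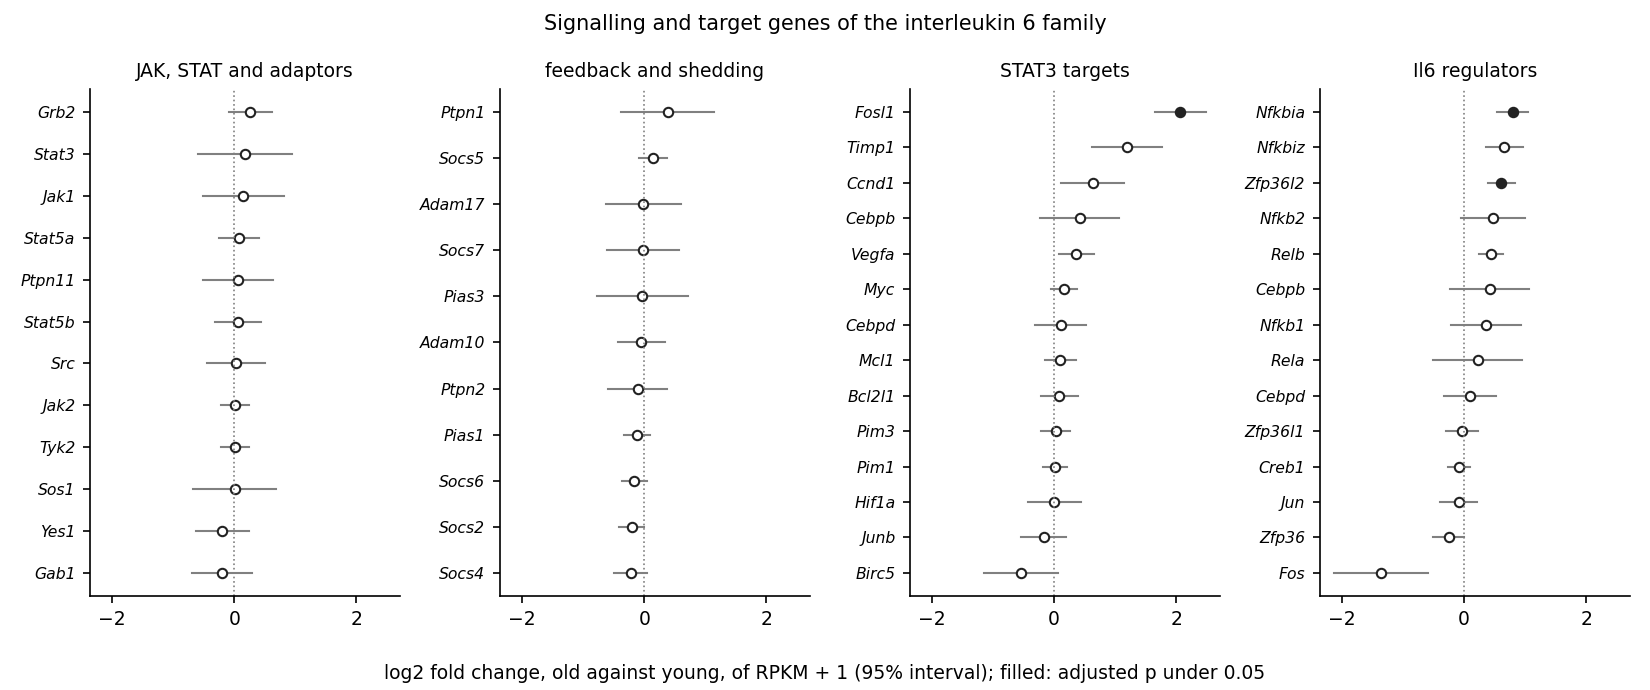
Log2 fold change of RPKM + 1, old against young, with its 95% interval from limma, for tested genes of 4 lists: JAK kinases, STAT factors and adaptors, feedback and shedding, STAT3 targets, and regulators of Il6. Filled points are called: Fosl1 at 2.07, Nfkbia at 0.80 and Zfp36l2 at 0.61.

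The tested genes whose levels ran most like Il6 over the 6 libraries were Rgs17, Pum3, Mir147, Rgs4 and Fas, at Pearson's r of 0.979 to 0.992 on the log2(RPKM + 1) scale. Rgs4, a regulator of G protein signalling, was at 4.97 ± 0.607 RPKM in old and 2.48 ± 0.115 RPKM in young, and Fas, the death receptor gene, at 10.3 ± 0.811 RPKM in old and 5.84 ± 0.621 RPKM in young (SD, n = 3 each). Those most like Il6st were Jak2, Qtrtd1, Bnc2, Taok1 and Dsel, at r of 0.99 to 0.993. Jak2, another kinase that gp130 uses, was at 12.1 ± 0.579 RPKM in old and 12 ± 0.98 RPKM in young (SD, n = 3 each). These correlations describe 6 libraries that share a group difference and a library that stands apart, and were picked as the highest of 12015 genes.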

How the data were processed

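The authors deposited 1 table for this series, in RPKM, for 29587 genes and 6 libraries, with exon positions on mm10. Per the submitters' processing notes, fastp, STAR, HTSeq and edgeR were used. Versions, parameters, annotation and strand setting were not given in the sources used here. Gene lengths in exon bases, another deposited value, ranked genes by length. Multiplied by length, the RPKM values gave whole reads within 0.01 in 100% of cases, which is how reads were recovered. Among genes with 1 to 5 reads, 77.5 to 79.3% had an even number, so reads are not independent molecules.

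Limma 3.58.1 in R 4.3.3 was fitted to log2(RPKM + 1) with a single term for group and a trended prior variance, on genes with at least 1 RPKM in at least 3 libraries. The scale understates changes of low genes. Fold changes are old against young, tests two-sided, and p-values adjusted by Benjamini-Hochberg. The fit was also run on simulated reads with a single fixed dispersion. That simulation held no library that stands apart and no length trend, so it does not cover these features of the data. The members and lists were chosen with earlier results of these data known. All members were named, with up to 4 genes of smallest p from each list, Il6ra, Stat3, Jak1, Osm and Cntfr, and the 5 genes most like Il6 and Il6st. Genes named as called without young replicate 1, Fos and marker genes were named after their values were seen. So were Zfp36, Zfp36l1, Zc3h12a and the STAT3 targets under the filter. Listed genes without a row were not analysed here, and some listed genes are not reported here and were left out of the counts and medians of their lists. Alternatives covered pseudocounts, filters, scalings, variance models, library weights, voom on recovered reads, a replicate block and leaving out each library.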

Additional observations from a re-analysis of the deposited data

How the results depend on the processing

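The direction of Il6 and Lif, higher in old, was the same under every alternative that tested them, with log2 fold changes of 0.80 to 1.75 for Il6 (20 alternatives) and 0.69 to 1.98 for Lif (19), while their calls were not. Both were called with all 6 libraries. The number of members called higher was 1 with a pseudocount of 0.1, with quantile normalization, without a variance trend and with a robust trend, and 0 without a filter, at a mean RPKM of at least 1 (where Lif was not tested) and with the replicate block. Leaving out single libraries gave 0 to 2 members. With library weights, which gave young replicate 1 a weight of 0.0425, 1 member, Il11ra1, was called lower. Over all genes, 177 were higher and 12 lower in the main comparison, against 2119 and 2957 with library weights, 82 and 0 with the replicate block, and 80 to 1589 and 0 to 2329 when single libraries were left out, the highest of these without young replicate 1. At an adjusted p under 0.1, 62 were lower, and after removal of the length trend 44. In the pathway lists 3 were higher and 1 lower, against 13 and 11 with library weights, 1 and 0 with the replicate block, 6 higher at an adjusted p under 0.1, and 1 to 10 and 0 to 10 when single libraries were left out. Deviations of same-numbered libraries from their group means correlated at Pearson's r of -0.03, -0.44 and 0.33 across genes. Those of differently numbered libraries ran from -0.42 to 0.43. Deviations from a mean of 3 libraries depend on each other, so these values cannot decide whether the libraries are paired. The labels name no pairing, and the main fit used none.

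Of the named genes that were not called, Clcf1, Il6st, Osmr, Stat3, Jak1, Tnfrsf11b and Cntf changed sign under some alternatives. With library weights, Clcf1, Osmr, Stat3, Jak1 and Tnfrsf11b had log2 fold changes of -0.042, -0.028, -0.077, -0.045 and -0.0093, and Cntf 0.18. With quantile normalization Il6st was at -0.0058. Over the fits that left out single libraries, the range was -0.035 to 0.13 for Clcf1, -0.048 to 0.095 for Il6st, -0.091 to 0.23 for Osmr, -0.16 to 0.056 for Cntf, -0.070 to 0.17 for Tnfrsf11b, -0.19 to 0.42 for Stat3 and -0.16 to 0.37 for Jak1. The log2 ratio of Osmr to Il6st differed by -0.071 to 0.21 between old and young. The cause of these changes was not tested. At 1 kilobase of length, a count of 3 reads equals 0.0355 to 0.0398 RPKM in old and 0.0362 to 0.0462 RPKM in young, a floor that covers counting error only.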
